A study of Mus musculus with 8 samples.

Results

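The BCL2 family genes examined here were Mcl1, Bcl2, Bcl2l1, Bcl2a1a, Bcl2a1b, Bcl2a1d, Bcl2l11, Bid, Bax and Bak1, taken by gene symbol from the deposited count table as a set of anti-apoptotic and pro-apoptotic members. They were 10 of 54532 genes in the table, and all 10 were among the 14051 genes that passed the filter on low counts and were tested. The libraries came from neutrophils sorted out of mammary tumours that 2208L cells, a mouse mammary tumour line, had formed in the fat pad of Balb/c mice. Cells with high surface ICAM1 (ICAM1high) and with low surface ICAM1 (ICAM1low) were compared, with 4 libraries each, and the cells of both fractions were labelled as untreated. The tumours were collected at a diameter of 1 cm, and mouse age and genotype were not given in the sources used here. The labels call the libraries biological replicates but do not say which mouse each came from, so the p-values measure the spread between these libraries.

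BCL2 proteins decide whether the outer mitochondrial membrane is opened, the step that releases cytochrome c and starts the caspase cascade of intrinsic apoptosis. Anti-apoptotic members hold the pore-forming effectors BAX and BAK in check, and BH3-only proteins such as BIM and BID relieve that hold or activate the effectors directly. Neutrophils are short-lived cells whose survival is known to depend on MCL1, a protein with rapid turnover, and on A1, the product of the Bcl2a1 genes, while they carry little BCL2 itself.

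Library depth ran from 10328575 to 22751975 counts. Icam1, the gene of the sort marker, was at 1459 ± 202 CPM (reads assigned to the gene per 1e6 counts, scaled by TMM, which assumes that most genes do not change; SD, n = 4) in ICAM1high and 848 ± 214 in ICAM1low. Its log2 fold change of ICAM1high over ICAM1low was 0.78 (SE 0.20, edgeR quasi-likelihood test, Benjamini-Hochberg adjusted p = 0.0105), and the ranges of the fractions did not overlap. All 12 neutrophil markers checked were detected in both fractions, but they summed to 8280.0 to 11236 CPM in ICAM1high against 37331 to 75458 in ICAM1low, and 12 of 12 were lower in ICAM1high. Macrophage and monocyte markers summed to 4139.6 to 6914 CPM against 873 to 1342, and 10 of 12 were higher, with none of the 12 at 0 in a whole fraction. S100a9, the most abundant neutrophil marker, ranged from 1867 to 3475 CPM against 11099 to 36028, and Csf1r, the most abundant macrophage marker, from 841 to 895 against 434 to 570. Epithelial and tumour cell markers summed to 111 to 163 CPM against 257 to 459, and fibroblast and endothelial, lymphoid, dendritic, and eosinophil, basophil and mast cell markers each to under 118 CPM in every library. Krt5, Prg2 and Epx were at 0 in all ICAM1high libraries, and Xcr1, Klrb1c, Mcpt8 and Ms4a2 in all ICAM1low libraries. The part of these other transcripts in the values of the family was not tested, and in bulk libraries fewer cells of a type and less RNA per cell cannot be told apart. ICAM1high replicate 1 and ICAM1low replicate 4 stood apart from the rest of their fractions: genes under 1000 bases took 5.79% and 11.1% of their counts, against 3.41% to 3.57% in the other ICAM1high libraries and 4.61% to 6.32% in the other ICAM1low libraries.

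Of the 10 family genes, 3 were higher in ICAM1high (Bcl2, Bcl2a1a and Bcl2a1d), 4 were lower (Mcl1, Bcl2l1, Bcl2l11 and Bid) and 3 did not pass (Bcl2a1b, Bax and Bak1) at an adjusted p under 0.05. Over all tested genes 42.1% passed, 22.6% as higher and 19.6% as lower, so calls were common in this comparison. CPM ranges of the fractions were separate for 7 of the 10 members, against 41.5% of all tested genes. The calls depended on scaling. Across the 14051 genes the fold change had a median of 0.08 (log2) under TMM and of 0.762 when libraries were scaled by their totals alone. With totals, 6 members were higher, with Bcl2a1b, Bax and Bak1 added, and only Mcl1 was lower, where 48.5% of all genes were higher and 5.97% lower.

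**Figure D1:**
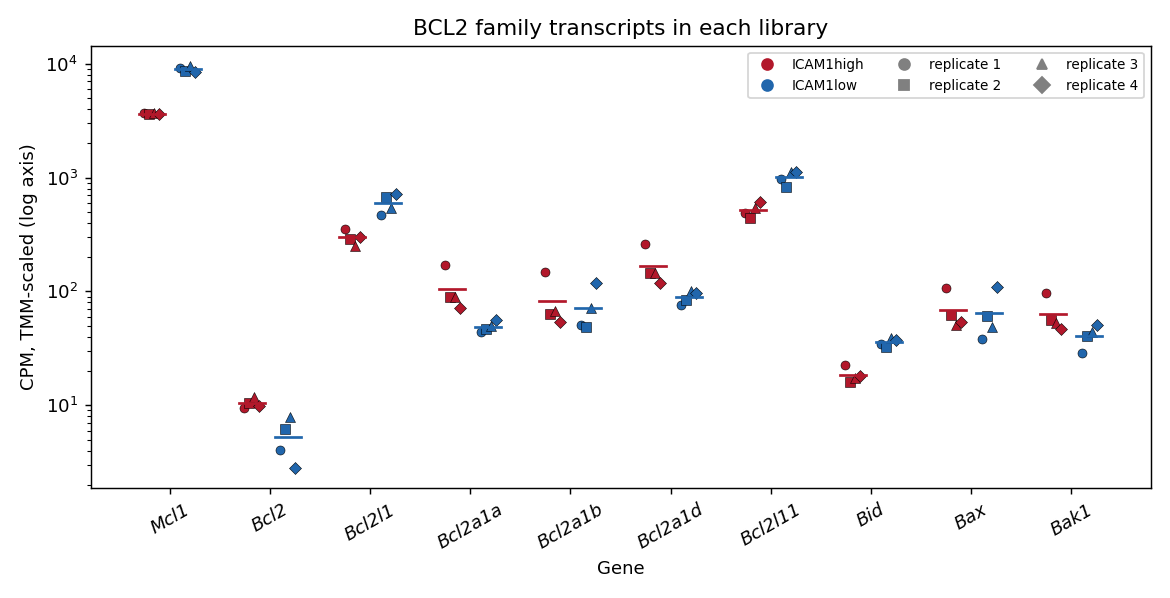
TMM-scaled CPM (log axis) of the 10 family genes in each of the 8 libraries; red symbols are ICAM1high, blue symbols ICAM1low, the symbol shape is the replicate and the short lines are group means. Mcl1 lies above every other member in all 8 libraries, and ICAM1high replicate 1 is the highest of its fraction for the 3 Bcl2a1 genes, Bax and Bak1.

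Mcl1 (ENSMUSG00000038612, GRCm38/mm10 chr3:95658788-95663176, plus strand) encodes the anti-apoptotic member that binds BAK, BIM and BID. It stood at 3658, 3592, 3651 and 3599.8 CPM in ICAM1high replicates 1 to 4 and at 9154, 8541, 9529 and 8379 CPM in ICAM1low. The 4 ICAM1high libraries lay within a narrow band, and every ICAM1low library was above it. The mean was 3625 ± 34.3 against 8901 ± 536 CPM (SD, n = 4), which was 2.46-fold lower in ICAM1high (log2 fold change -1.30, SE 0.13, adjusted p = 5.48e-05). Mcl1 passed as lower under each of the 21 alternatives run, with values from -1.36 to -0.61, the smallest with library totals. Even so, it ranked between 7 and 15 by CPM among the 14051 tested genes in all 8 libraries.

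Bcl2l1 (ENSMUSG00000007659, chr2:152780668-152831728, minus strand) encodes BCL-XL and, by splicing, the pro-apoptotic BCL-XS, which gene-level counts do not separate. Its CPM was 353, 289.7, 248 and 299 in ICAM1high and 466, 681, 539 and 717 in ICAM1low. All ICAM1high values were below all ICAM1low values. The log2 fold change was -1.01 (SE 0.18, adjusted p = 0.00158), from 601 ± 118 to 298 ± 43.4 CPM (SD, n = 4). With library totals the value was -0.33 and did not pass.

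Bcl2 (ENSMUSG00000057329, chr1:106538178-106714274, minus strand), the founding anti-apoptotic gene of the family, was the scarcest member. ICAM1high libraries held 9.54, 10.4, 11.8 and 9.76 CPM and ICAM1low libraries 4.04, 6.24, 7.82 and 2.81 CPM, or 45 to 244 counts per library. The fractions did not overlap, although the ICAM1low libraries were the more scattered. Bcl2 rose by 0.98 on the log2 scale (SE 0.30, adjusted p = 0.0238), from 5.23 ± 2.24 to 10.4 ± 1.01 CPM (SD, n = 4). It did not pass without ICAM1high replicate 2, ICAM1high replicate 3 or ICAM1low replicate 1 (0.97, 0.91 and 0.88).

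The mouse has several near-identical Bcl2a1 genes on chromosome 9, all encoding A1, an anti-apoptotic protein known as a target of NF-kB in myeloid cells. The coding sequences are printed because their likeness limits how well reads can be assigned to one gene. Each is 519 bases long in the GENCODE M21 annotation, and 12 positions differ among the 3. Bcl2a1a and Bcl2a1b were 97.9% identical, Bcl2a1a and Bcl2a1d 98.7%, and Bcl2a1b and Bcl2a1d 98.8%. The first 150 coding bases, within a single exon each, are shown from GENCODE M21 transcripts (GRCm38/mm10), with capitals at the 7 positions where the 3 genes are not all the same. They lie at chr9:88957051-88957200 (Bcl2a1a, plus strand), chr9:89199360-89199509 (Bcl2a1b, plus strand) and chr9:88731570-88731719 (Bcl2a1d, minus strand).
Bcl2a1a: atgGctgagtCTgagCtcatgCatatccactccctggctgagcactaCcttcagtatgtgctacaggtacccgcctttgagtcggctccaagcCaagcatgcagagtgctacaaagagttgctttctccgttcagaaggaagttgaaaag
Bcl2a1b: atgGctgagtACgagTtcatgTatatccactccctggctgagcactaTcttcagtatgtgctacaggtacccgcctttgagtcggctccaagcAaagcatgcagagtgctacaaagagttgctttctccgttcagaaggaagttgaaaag
Bcl2a1d: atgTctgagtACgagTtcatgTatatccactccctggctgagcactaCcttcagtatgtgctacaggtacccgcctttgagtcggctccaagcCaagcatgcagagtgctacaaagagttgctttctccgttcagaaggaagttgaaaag

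Of all stretches of 100 bases in the transcripts, 43.5% of those of Bcl2a1a, 31.1% of Bcl2a1b and 54.7% of Bcl2a1d occur exactly in a transcript of another of the 3 genes. For stretches of 150 bases the shares were 28.2%, 14.2% and 30.3%. The read length and the treatment of reads that map to several places were not given in the sources used here. How the counts divide among the 3 genes is therefore uncertain, and the values below are those of the deposited table.

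Bcl2a1a (ENSMUSG00000102037, chr9:88956900-88962419, plus strand) was at 169, 89.9, 89.1 and 71.6 CPM in ICAM1high and at 43.9, 46.4, 49.8 and 55.9 CPM in ICAM1low. ICAM1high replicate 1 was far above the others, and even the lowest ICAM1high library exceeded the highest ICAM1low library. Bcl2a1a rose by 1.10 on the log2 scale (SE 0.25, adjusted p = 0.00587), from 49.0 ± 5.19 to 105 ± 43.7 CPM (SD, n = 4).

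Bcl2a1d (ENSMUSG00000099974, chr9:88723285-88731914, minus strand) was at 261, 146, 146 and 119 CPM in ICAM1high and at 76.2, 83.7, 100.4 and 96.2 CPM in ICAM1low. The order of the libraries was like that of Bcl2a1a, again with ICAM1high replicate 1 on top and no overlap between fractions. The change was 0.92 (SE 0.24, adjusted p = 0.011), from 89.2 ± 11.2 to 168 ± 63.3 CPM (SD, n = 4), and it was 0.59, still past the threshold, without ICAM1high replicate 1. Gm10634, an annotated gene on the other strand over the same span, held counts equal to 2.22% of those of Bcl2a1d.

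Bcl2a1b (ENSMUSG00000089929, chr9:89199209-89207827, plus strand) was at 147, 63.7, 66.9 and 53.8 CPM in ICAM1high and at 50.6, 48.6, 71.4 and 118 CPM in ICAM1low. Here the fractions overlapped, and the highest library of each was the one in which short genes took the largest share of counts. Means of 82.8 ± 43.0 and 72.1 ± 32.1 CPM (SD, n = 4) set the log2 fold change at 0.20 (SE 0.37, adjusted p = 0.691), which turned to -0.27 without ICAM1high replicate 1 and was 0.54 without ICAM1low replicate 4, neither past the threshold. With library totals it was 0.90 and passed as higher.

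Within the summed counts per kilobase of the 3 genes, Bcl2a1a held 30.01% to 30.7% in ICAM1high and 21.1% to 26.6% in ICAM1low. Bcl2a1b held 21.8% to 26.1% and 27.9% to 44.5%. Neither range overlapped between fractions, whereas the share of Bcl2a1d did (43.9% to 47.4% against 34.4% to 45.5%). After the group means were removed, log2 CPM of Bcl2a1a and Bcl2a1d had a Pearson r of 0.98 over the 8 libraries, a description of genes that share sequence and libraries.

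The promoters of the 3 genes are shown because the genes share them almost letter for letter although the table gives their transcripts different values. The blocks come from the RefSeq promoter windows (GRCm38.p6) and lie upstream of the start of each gene in RefSeq and GENCODE, at chr9:88956736-88956855 (Bcl2a1a, plus strand), chr9:89199045-89199164 (Bcl2a1b, plus strand) and chr9:88731915-88732028 (Bcl2a1d, minus strand). Capitals mark the 2 motifs described after them. Over this stretch Bcl2a1a and Bcl2a1b were identical in all 120 bases, and Bcl2a1d, with 114 bases, differed only in lacking 6 of them.
Bcl2a1a: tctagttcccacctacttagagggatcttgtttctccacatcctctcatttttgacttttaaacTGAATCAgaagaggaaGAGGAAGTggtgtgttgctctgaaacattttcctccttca
Bcl2a1b: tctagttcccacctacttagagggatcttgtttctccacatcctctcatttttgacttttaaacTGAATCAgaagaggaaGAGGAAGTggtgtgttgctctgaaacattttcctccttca
Bcl2a1d: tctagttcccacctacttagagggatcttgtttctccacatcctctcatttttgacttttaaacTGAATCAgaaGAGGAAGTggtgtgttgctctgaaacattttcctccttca

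All 3 blocks hold GAGGAAGT, a form of the site of PU.1, the myeloid master regulator. They also hold a match to TGANTCA, a loose form of the AP-1 site that allows any base at its centre, which is A in these blocks. Both strands of the 250 bases before the start were searched in all 32851 promoter windows. The PU.1 motif occurred in 2.4% of the windows, among members also in Bak1, and the AP-1 motif in 6.7%, among members in the 3 Bcl2a1 genes only. GGGNNNNNCC, a loose NF-kB motif found in 45.8% of windows, was in the windows of the other 7 members and in none of the printed blocks. These matches describe letters and not binding.

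Among the BH3-only members, Bcl2l11 (ENSMUSG00000027381, chr2:128126038-128162547, plus strand) encodes BIM, which binds all anti-apoptotic members. It was at 484, 439.9, 539.8 and 611 CPM in ICAM1high and at 971, 827, 1122 and 1124 CPM in ICAM1low. The fractions were separate, and replicate 2 was the lowest of each. Means of 519 ± 73.7 against 1011 ± 142 CPM (SD, n = 4) put the log2 fold change at -0.96 (SE 0.17, adjusted p = 0.00119), a 1.95-fold lower level in ICAM1high.

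Bid (ENSMUSG00000004446, chr6:120891930-120916853, minus strand) encodes the BH3-only protein that caspase-8 cleaves to link death receptors to mitochondria. Its CPM was 22.4, 16.1, 17.3 and 18.1 in ICAM1high and 34.6, 32.7, 39.3 and 37.2 in ICAM1low. No ICAM1high library reached the lowest ICAM1low library. From 36.0 ± 2.90 to 18.5 ± 2.74 CPM (SD, n = 4) the change was -0.96 (SE 0.16, adjusted p = 0.000977). Bid overlaps Bcl2l13 on the other strand over 913 bases of the gene spans, and the strand setting of the counting was not given in the sources used here. Counts over the whole of Bcl2l13 were 139.9% of those of Bid. Bcl2l13, at 35.4 ± 3.76 against 38.8 ± 1.87 CPM, did not pass (log2 fold change -0.13, SE 0.14, adjusted p = 0.469). With library totals Bcl2l11 and Bid were at -0.27 and -0.28 and neither passed.

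The effectors BAX and BAK form the pore in the mitochondrial outer membrane once activated. Bax (ENSMUSG00000003873, chr7:45461697-45466898, minus strand) was at 106, 62.0, 50.5 and 53.6 CPM in ICAM1high and at 37.9, 60.7, 48.5 and 110.1 CPM in ICAM1low. The fractions overlapped across most of their range, and ICAM1high replicate 1 and ICAM1low replicate 4 were again the highest. A difference of 0.08 (SE 0.34, adjusted p = 0.867) between 68.1 ± 25.9 and 64.3 ± 31.9 CPM (SD, n = 4) turned negative without ICAM1high replicate 1 (-0.26), ICAM1low replicate 1 (-0.10) or ICAM1low replicate 3 (-0.03).

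Bak1 (ENSMUSG00000057789, chr17:27019810-27029009, minus strand) was at 96.4, 55.9, 52.4 and 47.0 CPM in ICAM1high and at 29.1, 40.7, 43.7 and 50.3 CPM in ICAM1low. ICAM1low replicate 4 exceeded the lowest ICAM1high library, so the fractions overlapped there. A log2 fold change at 0.62 (SE 0.25, adjusted p = 0.0699), from 40.9 ± 8.87 to 62.9 ± 22.6 CPM (SD, n = 4), missed the threshold, passed without ICAM1low replicate 4 (0.74) and was 0.30 without ICAM1high replicate 1. Counts of Ggnbp1, on the other strand across Bak1, were 3.88% of those of Bak1. With all 8 libraries, scaled by TMM or, in DESeq2, by its size factors, neither effector was called by edgeR, DESeq2 or limma-voom, and 1 of the 2 had an unadjusted p under 0.05 in each. Scaled by library totals, edgeR called both as higher, Bak1 at 1.30 and Bax at 0.78, and it called Bak1 in replicates 1 and 2 alone (1.12).

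Levels of different genes were compared per length, as RPKM (TMM-scaled CPM divided by the deposited gene length in kilobases). Mcl1 led in both fractions, at 1061 ± 10.02 RPKM in ICAM1high and 2604 ± 157 in ICAM1low (SD, n = 4). In ICAM1high it was followed by Bcl2a1d (195 ± 73.4), Bcl2a1a (128 ± 53.4), Bcl2a1b (101 ± 52.6), Bcl2l1 (64.9 ± 9.46), Bcl2l11 (64.6 ± 9.18), Bax (43.2 ± 16.4), Bak1 (26.1 ± 9.38), Bid (5.20 ± 0.771) and Bcl2 (1.13 ± 0.110). Ranges over libraries overlapped between all neighbours from Bcl2a1d to Bak1, while Mcl1, Bid and Bcl2 were separate from their neighbours.

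In ICAM1low the members after Mcl1 were Bcl2l1 (131 ± 25.7 RPKM), Bcl2l11 (126 ± 17.7), Bcl2a1d (103 ± 12.9), Bcl2a1b (88.2 ± 39.3), Bcl2a1a (59.8 ± 6.34), Bax (40.8 ± 20.3), Bak1 (17.0 ± 3.69), Bid (10.1 ± 0.817) and Bcl2 (0.571 ± 0.244). Neighbours overlapped from Bcl2l1 to Bax, and Bak1, Bid and Bcl2 were each separate from the next. By RPKM, Bcl2l1 and Bcl2l11 thus stood above the mean of each Bcl2a1 gene in ICAM1low and below it in ICAM1high. By CPM, not divided by length, their means were above those of each Bcl2a1 gene in both fractions.

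The 6 anti-apoptotic members together came to 1551 ± 194 RPKM in ICAM1high and 2987 ± 133 in ICAM1low (SD, n = 4), with no overlap. Without Mcl1 the sum ranged from 357 to 767 RPKM in ICAM1high and from 306 to 481 in ICAM1low, so the fractions overlapped. Bax and Bak1 together ranged from 53.6 to 107 and from 36.1 to 90.8 RPKM, also with overlap.

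Shares within a library do not depend on scaling between libraries. Mcl1 made up 58.3%, 71.4%, 72.0% and 74.7% of the summed counts per kilobase of the 6 anti-apoptotic genes in ICAM1high replicates 1 to 4 and 89.7%, 87.3%, 87.9% and 83.6% in ICAM1low. The 3 Bcl2a1 genes together took 37.5%, 24.3%, 24.3% and 20.6% in ICAM1high and 6.83%, 7.45%, 8.34% and 11.04% in ICAM1low. Every ICAM1high library thus had a smaller Mcl1 share and a larger Bcl2a1 share than every ICAM1low library. The sum of the 3 genes is less exposed to reads that could belong to more than 1 of them. The Bcl2a1 share also depends on Mcl1, which is part of the total it is taken from. In RPKM the 3 genes summed to 291 to 689 in ICAM1high and 204 to 324 in ICAM1low, with overlap.

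The mean Mcl1 share was 69.1% ± 7.35 against 87.2% ± 2.58, and the mean Bcl2a1 share 26.7% ± 7.42 against 8.42% ± 1.86 (SD, n = 4). Bcl2l1 held 3.64% to 4.62% and 3.41% to 5.33%, overlapping, and Bcl2 stayed under 0.1% throughout, at 0.0567% to 0.0867% against 0.0105% to 0.0269%.

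**Figure D2:**
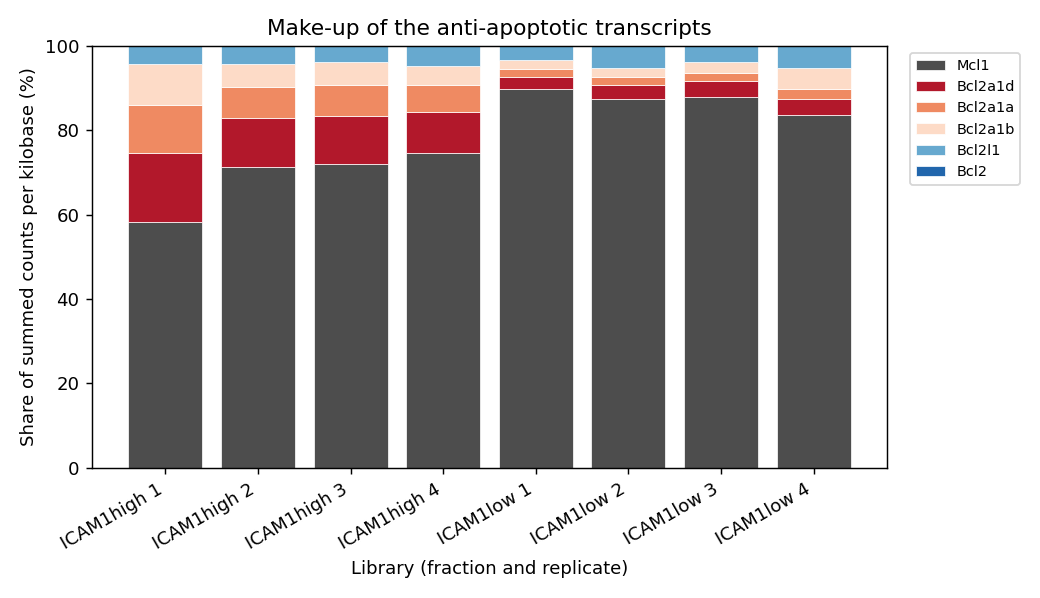
Stacked bars giving, for each of the 8 libraries, the percentage of summed counts per kilobase held by each of the 6 anti-apoptotic genes. Mcl1 is the largest segment in every bar, from 58.3% to 74.7% in ICAM1high and from 83.6% to 89.7% in ICAM1low, while the Bcl2 segment is too small to see.

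Ratios of a pro-apoptotic to an anti-apoptotic transcript (log2 of counts per kilobase) are also free of scaling between libraries. Bcl2l11 over Mcl1 was -4.15, -4.26, -3.99 and -3.79 in ICAM1high and -4.47, -4.60, -4.32 and -4.13 in ICAM1low, and these ranges overlapped. Bid over Mcl1 ran from -7.86 to -7.41 in ICAM1high and from -8.10 to -7.87 in ICAM1low, separate by a narrow gap. The mean differences were similar, at 0.33 for Bcl2l11 and 0.32 for Bid. Bax over Mcl1 was -3.99, -4.74, -5.06 and -4.95 in ICAM1high and -6.80, -6.02, -6.50 and -5.13 in ICAM1low. Bak1 over Mcl1 was -4.74, -5.50, -5.62 and -5.75 against -7.79, -7.21, -7.26 and -6.87. Both effectors were thus higher relative to Mcl1 in every ICAM1high library than in any ICAM1low library, with mean differences of 1.43 for Bax and 1.88 for Bak1. These ratios also depend on Mcl1, itself lower in ICAM1high (log2 fold change -1.30), while Bax (0.08) and Bak1 (0.62) were not called. The share of all genes whose ratio to Mcl1 separates in this way was not computed. Over Bcl2l1, also lower in ICAM1high (-1.01), both effectors were higher without overlap, with mean differences of 1.14 and 1.59. Relative to Bcl2a1a both effectors were lower in every ICAM1high library than in any ICAM1low library, with group means of -1.56 against -0.66 for Bax and -2.27 against -1.84 for Bak1. For Bak1 the gap was narrow, with -2.16 as the highest ICAM1high value and -2.15 as the lowest ICAM1low value. Bax over Bcl2a1d was also lower without overlap (-2.17 against -1.45), while Bak1 over Bcl2a1d overlapped. Over Bcl2a1b both effectors overlapped, with group means of -1.18 against -1.14 for Bax and -1.89 against -2.31 for Bak1.

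The mean ratio of Bcl2l11 to Bcl2l1 differed by 0.04 between fractions, with overlap. Bcl2l11 over Bcl2a1a ran from -1.78 to -0.20 in ICAM1high and from 0.86 to 1.20 in ICAM1low. Per kilobase, BIM transcript was thus below that of Bcl2a1a in each ICAM1high library and above it in each ICAM1low library. That order rests on deposited lengths of 8029 bases for Bcl2l11 and 819 for Bcl2a1a. By CPM, Bcl2l11 was above Bcl2a1a in all 8 libraries (439.9 to 1124 against 43.9 to 169). For Bcl2l11 over Bcl2a1d the ranges were -2.33 to -0.86 and 0.09 to 0.45. Bcl2l11 over Bcl2a1b overlapped (-1.57 to 0.21 against -0.04 to 0.96). Bax over Bcl2 overlapped (4.64 to 6.01 against 5.17 to 7.83). No p-value was computed for shares or ratios, since the genes in them were chosen with their levels known.

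**Figure D3:**
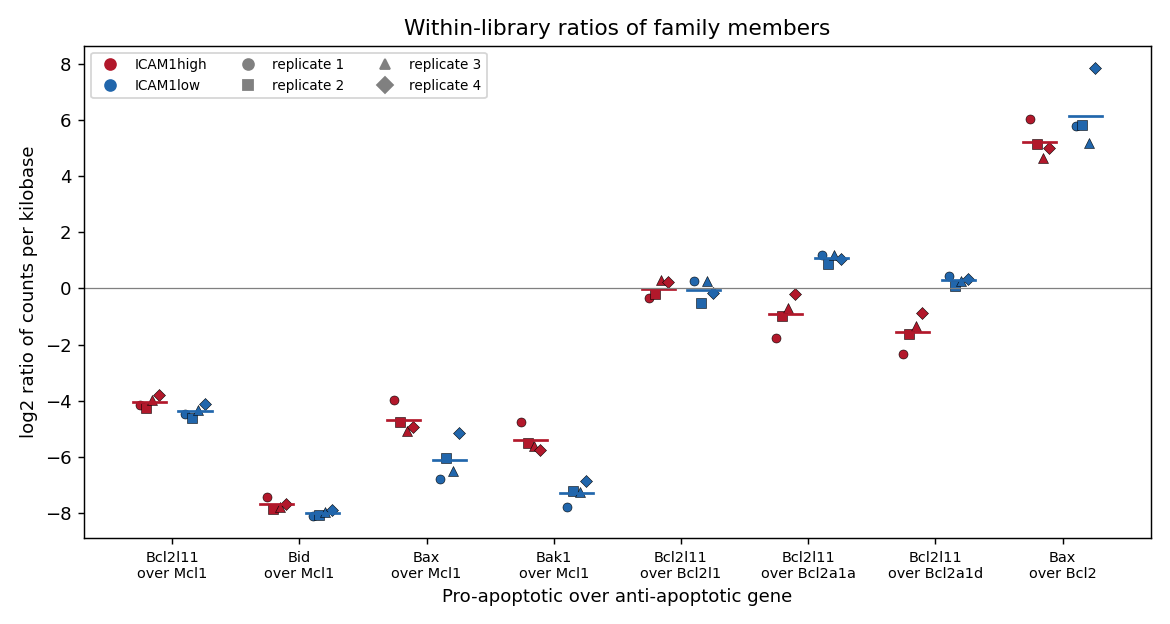
Log2 ratios of counts per kilobase of a pro-apoptotic over an anti-apoptotic gene in each library, with ICAM1high in red, ICAM1low in blue, symbol shapes for replicates and lines for group means. Bax and Bak1 over Mcl1 lie higher in all 4 ICAM1high libraries, Bcl2l11 over Bcl2a1a and Bcl2a1d lies lower in all 4, and Bcl2l11 over Mcl1 and over Bcl2l1 overlaps between fractions.

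The 8 libraries carry library numbers from 2 series, with replicates 1 and 2 in the first and 3 and 4 in the second, and each number is shared by an ICAM1high and an ICAM1low library. The labels do not say what the numbers stand for. Mcl1 was at -1.29 in replicates 1 and 2 and at -1.35 in replicates 3 and 4, and Bcl2l11 at -0.96 and -1.02. These genes, Bcl2l1 (-0.83 and -1.26), Bid (-0.81 and -1.16) and Bcl2 (0.95 and 0.98) kept their direction in each series, with 2 libraries per fraction. The Bcl2a1 genes moved more: Bcl2a1a was at 1.52 and 0.56, Bcl2a1d at 1.35 and 0.39, and Bcl2a1b at 1.08 and -0.70. The effectors split in the same way, with Bax at 0.77 and -0.67 and Bak1 at 1.12 and 0.03. In replicates 3 and 4 alone edgeR called 4 members lower and 0 higher, with 1 higher at an unadjusted p under 0.05, and DESeq2 and limma-voom were run on all 8 libraries only. The difference between the series was not tested.

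**Figure D4:**
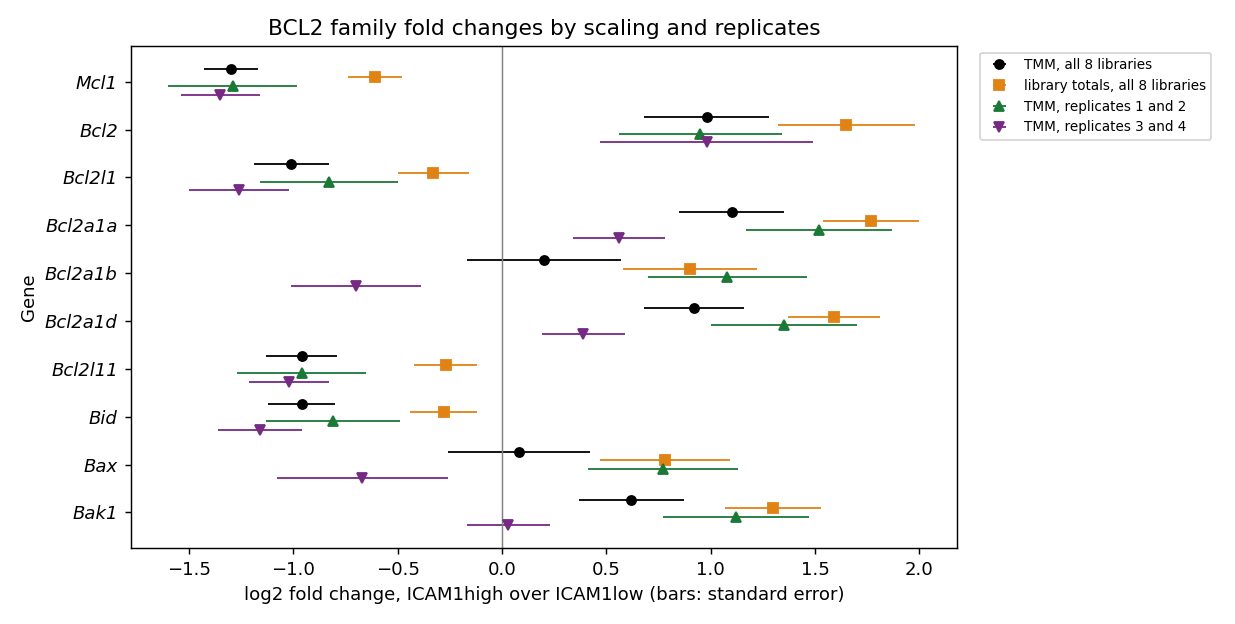
Log2 fold changes (ICAM1high over ICAM1low) of the 10 members with standard errors, for TMM scaling of all 8 libraries (black), scaling by library totals (orange), replicates 1 and 2 (green) and replicates 3 and 4 (purple). Mcl1 lies below 0 and Bcl2 above 0 in all 4 fits, whereas Bcl2a1b and Bax lie above 0 in replicates 1 and 2 (1.08 and 0.77) and below 0 in replicates 3 and 4 (-0.70 and -0.67).

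Of 16 further BCL2 family genes, 10 could be tested, 2 were higher and 2 were lower, beside 22.6% higher and 19.6% lower over all genes. Their median log2 fold change was -0.13 against 0.08 over all genes. Bcl2l2, which encodes the anti-apoptotic BCL-W, rose by 1.43 (SE 0.24, adjusted p = 0.000997), from 3.35 ± 0.761 to 9.07 ± 1.18 CPM (SD, n = 4). Bmf, a BH3-only gene, rose by 1.08 (SE 0.29, adjusted p = 0.0139), from 3.47 ± 1.33 to 7.33 ± 0.731 CPM. The genes that fell were the hypoxia-inducible mitophagy receptors Bnip3, at 123 ± 26.2 against 324 ± 116 CPM (log2 fold change -1.40), and Bnip3l, at 146 ± 23.0 against 275 ± 78.5 CPM (-0.92). With library totals Bnip3l was at -0.22 and did not pass, and Bnip3 was at -0.70 and passed.

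The main other BH3-only genes did not pass. Pmaip1, which encodes the MCL1 antagonist NOXA, was at 179 ± 14.1 against 161 ± 29.2 CPM (log2 fold change 0.16, adjusted p = 0.467). Bbc3, the gene of the p53 target PUMA, was at 18.3 ± 0.783 against 20.1 ± 7.03 CPM, and Bad, which growth factor signals hold inactive, at 10.9 ± 4.01 against 12.0 ± 4.69 CPM. The remaining tested genes, Bcl2l12 (0.38) and Bcl2l15 (-0.53), were below 5 CPM on average and did not pass, though Bcl2l12 passed at 1.33 without ICAM1low replicate 4. Under library totals Pmaip1 (0.83), Bbc3 (0.57) and Bcl2l13 (0.55) passed as higher.

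In the mitochondrial pathway downstream of the pore 5 of 19 tested genes were higher and 3 lower, with a median of 0.28, near the shares of 22.6% higher and 19.6% lower over all genes. Under library totals 13 were higher and 1 lower, with a median of 0.97. Beside these, 48.5% of all genes were higher and 5.97% lower under that scaling, with a median of 0.762. Htra2, a mitochondrial protease that antagonises caspase inhibitors, rose by 1.06 (SE 0.17, adjusted p = 0.000706). Birc3, which encodes the NF-kB-induced ubiquitin ligase cIAP2, was at 357 ± 40.4 against 857 ± 77.3 CPM, a change of -1.26 (SE 0.15, adjusted p = 0.000124), and its relative Birc2 changed by -0.57. Birc2 did not pass without ICAM1high replicate 2, ICAM1low replicate 1 or ICAM1low replicate 3 (-0.56, -0.44 and -0.56).

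Of 8 tested genes of the death receptor route to BID, 3 were lower and 1 higher, beside 19.6% lower and 22.6% higher over all genes. The list median was -0.50. Under library totals 2 were lower and 2 higher, with a median of 0.20, beside 5.97% lower and 48.5% higher over all genes. Fas, the death receptor gene, was at 81.4 ± 23.5 against 226 ± 50.8 CPM (log2 fold change -1.47, adjusted p = 0.000807). Tnfrsf1a, the TNF receptor 1 gene, was at 262 ± 30.6 against 664 ± 66.6 CPM (-1.34, adjusted p = 9.07e-05). The gene that rose, named after its value was seen, was the adaptor Fadd at 1.78 (SE 0.35, adjusted p = 0.0024). Cflar, which encodes the caspase-8 inhibitor c-FLIP, was at 451 ± 138 against 603 ± 128 CPM and did not pass, except without ICAM1high replicate 4 (-0.64). Ripk1, the kinase gene of TNF receptor signalling, changed by -0.48 (SE 0.14, adjusted p = 0.0189) and did not pass without ICAM1high replicate 2 (-0.49) or ICAM1low replicate 3 (-0.42).

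Regulators of MCL1 protein stability numbered 7 tested genes, of which 3 passed, all lower with edgeR. Beside these, 42.1% of all tested genes passed and 19.6% were lower. The list median was -0.38. The kinase genes Gsk3a and Gsk3b, whose products mark MCL1 for degradation, changed by -0.67 (SE 0.12, adjusted p = 0.00195) and -0.75 (SE 0.13, adjusted p = 0.00107), and the ubiquitin ligase subunit gene Fbxw7 by -0.71 (SE 0.25, adjusted p = 0.0403). Fbxw7 did not pass without ICAM1low replicate 4 (-0.42) or without ICAM1high replicate 2, 3 or 4 (-0.68, -0.77 and -0.66). Dusp6, a phosphatase gene that restrains ERK, was at -0.38 and did not pass with edgeR, but was called with DESeq2 (-0.44), with RLE scaling (-0.44) and without ICAM1low replicate 4 (-0.44). Under library totals Gsk3a, Gsk3b and Fbxw7 were at 0.01, -0.07 and -0.00, and none of the 3 passed.

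The list of receptors and transcription factors that act on the family or on neutrophil survival had 11 of 19 genes lower and 2 higher, with a median of -0.76, beside 19.6% lower and 22.6% higher over all genes. Under library totals 4 were lower and 4 higher, with a median of -0.08, beside 5.97% lower, 48.5% higher and a median of 0.762 over all genes. Not all of them favour survival: Foxo3, a transcription factor gene whose product induces Bcl2l11 and which was named after its value was seen, was among the 11 at -0.91, and Foxo1 and Trp53 did not pass. Csf3r, the G-CSF receptor gene, also counted among the neutrophil markers, was at 2704 ± 208 against 7500.2 ± 749.8 CPM (log2 fold change -1.47, adjusted p = 4.64e-05). Hif1a, the hypoxia regulator gene, was at 221 ± 23.8 against 600.2 ± 57.0 CPM (-1.44, adjusted p = 5.26e-05). Rela, an NF-kB subunit gene, was at 199 ± 30.2 against 410.0 ± 46.8 CPM (-1.04, adjusted p = 0.00061), and Csf2ra, a subunit gene of the GM-CSF receptor, changed by -1.15. The genes that rose, named after their values were seen, were Csf1r, also counted among the macrophage markers, at 0.78 and Il3ra at 2.08.

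Over the 63 tested genes of these lists, 10 were higher and 22 lower with a median of -0.26, beside 22.6% higher and 19.6% lower over all genes. Of the 22, 11 came from the list of survival receptors and transcription factors. Under library totals 26 were higher and 8 lower with a median of 0.43, beside 48.5% higher and 5.97% lower over all genes.

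**Figure D5:**
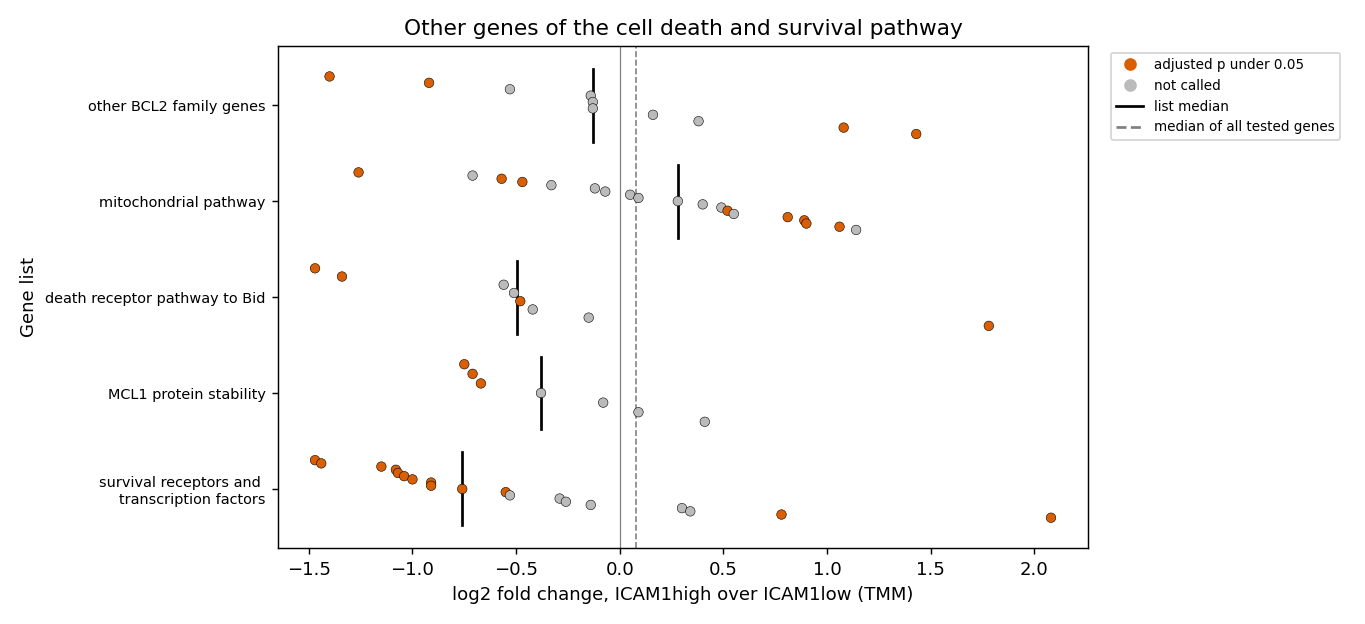
Log2 fold changes (ICAM1high over ICAM1low, TMM) of the tested genes in the 5 lists around the family; orange points passed an adjusted p under 0.05, grey points did not, black lines are list medians and the dashed line is the median of all tested genes at 0.08. The survival receptors and transcription factors have the lowest list median (-0.76) and the mitochondrial pathway the highest (0.28).

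The genes whose log2 CPM followed the members most closely over the 8 libraries were ranked by Pearson r, as a description, since any gene that differs between fractions scores high. For Mcl1 they were Selenon (0.999), Por (0.998) and Sde2 (0.998). Bcl2 was most like Usp10 (0.993), a deubiquitinase gene, and Bcl2l1 most like Gm4735 (0.995) and Tm4sf1 (0.994). Bcl2a1a was followed by Lyz1 (0.989) and Bcl2a1d by Stoml2 (0.978), Lyz1 (0.976) and Il3ra (0.976). Lyz1 is a lysozyme gene, and Il3ra encodes the receptor subunit for interleukin-3. For Bcl2l11 the closest genes were Tnfrsf1b (0.997), the TNF receptor 2 gene, and Clec4e (0.992), and for Bid they were Cd24a (0.997) and Glrx (0.996).

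With the group means removed, Bak1 varied together with Bcl2a1a (r = 0.92) and Bcl2a1d (0.93), and Bax with Bak1 (0.87) and Bcl2l1 (0.89). Correlations of Mcl1 with the other members ran from -0.66 to 0.60. These values rest on 8 libraries of which ICAM1high replicate 1 and ICAM1low replicate 4 were the extremes for Bcl2a1b and Bax. ICAM1high replicate 1 was also the highest of its fraction for Bcl2a1a, Bcl2a1d, Bak1 and Bcl2l1 (169, 261, 96.4 and 353 CPM).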

How the data were processed

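mRNA-seq libraries of 4 ICAM1high and 4 ICAM1low samples were given as a table of whole-number counts per gene, deposited by the authors without normalization. Reads were aligned with HISAT2 to mm10, per the submitters' processing notes. The counting tool, annotation, strand setting and filters were not given in the sources used here. The deposited table also holds another quantity, the gene length in bases, which the authors supplied and which was used for RPKM.

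Counts were filtered with filterByExpr (14051 genes kept), scaled by TMM and fitted with the quasi-likelihood test of edgeR 4.0.16 in R 4.3.3 over all 8 libraries, with Benjamini-Hochberg adjustment over all tested genes and a threshold of 0.05. Depth of 10328575 to 22751975 counts left Bcl2 with as few as 45 counts. The fit was tested on simulated data with known changes. It recovered 1.49% of 67 changes of 1.5-fold, 16.4% of 67 of 2-fold and 68.2% of 66 of 4-fold. A gene that did not pass may therefore still differ. Far fewer genes were changed in the simulation than the 42.1% called here, so these rates may not carry over. Alternatives were DESeq2 1.42.0, limma-voom 3.58.1, other scalings and filters, robust dispersion, the replicate block, the library-number series as a covariate or alone, and leaving out libraries. The members, gene lists and tests were chosen with earlier results of these data known. Besides the members and Icam1, the text names every other tested BCL2 family gene, up to 4 genes of each other pathway list with the smallest p and an average log2 CPM of at least 3, the most abundant gene of the neutrophil and macrophage marker lists, genes that overlap a member, and the genes with the highest Pearson r with each called member. One gene that this rule selects is not reported here. All 10 members matched the GENCODE M21 position of their identifier.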

Additional observations from a re-analysis of the deposited data

Results flagged for a closer look

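In 98 groups of 4 libraries, 5 held a library whose distance from the nearest other, as a share of the group's range, exceeded Dixon's 95% critical value, and about 4.9 such groups would be flagged by chance. Bcl2a1b in ICAM1high replicate 1 was at 147 CPM, against 53.8 to 66.9 in the other ICAM1high libraries, and its share of the anti-apoptotic counts per kilobase was 9.77% there, against 4.67% to 5.52%. The other 3 were in ICAM1low replicate 4: Bbc3, the PUMA gene, was at 30.6 CPM against 15.8 to 17.98, Bcl2l12 at 7.68 CPM against 1.22 to 2.20, and Fbxw7 at 36.2 CPM against 18.3 to 19.6. These are the libraries in which genes under 1000 bases took 5.79% and 11.1% of all counts.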

How the results depend on the processing

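Mcl1, Bcl2l2, Birc3, Bnip3, Csf2ra, Csf3r, Fas, Hif1a, Htra2 and Tnfrsf1a kept direction and call under all 21 alternatives. Scaling by library totals gave 6818 genes higher and 839 lower, 6 and 1 members, and 26 and 8 pathway genes; it turned Bad (0.56), Bbc3 (0.57), Bcl2l13 (0.55), Bcl2l15 (0.19), Birc2 (0.12), Ripk1 (0.20), Cflar (0.27), Gsk3a (0.01) and Dusp6 (0.30). Replicates 1 and 2 alone, with fewer samples, gave 3124 calls (1708 higher, 1416 lower), 2 members lower, 4 pathway genes higher and 12 lower, with Bad at 0.56, Bbc3 at 0.11 and Pmaip1 at -0.04. Replicates 3 and 4 alone gave 3262 calls (1658 and 1604), 0 members higher by edgeR (1 at an unadjusted p under 0.05), 3 pathway genes higher and 14 lower, with Bcl2a1b at -0.70, Bax at -0.67 and Bcl2l12 at -0.64. Leaving out 1 library gave 4502 to 6287 calls, 2 to 4 members higher and 4 lower. Across those fits Bcl2a1b ran from -0.27 to 0.54, Bax from -0.26 to 0.47, Bad from -0.43 to 0.15 and Bbc3 from -0.24 to 0.14; signs turned for Bcl2a1b (-0.27) and Bax (-0.26) without ICAM1high replicate 1, Bax without ICAM1low replicate 1 (-0.10) or 3 (-0.03), and Bad (0.15) and Bbc3 (0.14) without ICAM1low replicate 4, Bbc3 also without both libraries that stood apart (0.11). Shares taken from counts without division by length differed between fractions by -6.91 percentage points for Mcl1, 0.189 for Bcl2, 0.699 for Bcl2l1, 1.91 for Bcl2a1a, 1.15 for Bcl2a1b, 2.96 for Bcl2a1d and 6.02 for the 3 Bcl2a1 genes. The cause of the turned values was not tested. Depth limits Bcl2, at 45 to 244 counts.

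Each replicate and library number is shared by an ICAM1high and an ICAM1low library, and whether it marks a mouse was not given. Deviations of same-numbered libraries correlated at -0.566, 0.21, 0.184 and -0.3, which does not settle whether they are pairs, so the block is given as an alternative only. With the replicate block 4238 genes were called, against 5920 without it, and 2 members were higher and 4 lower; Bcl2a1d was at 0.85 (edgeR adjusted p = 0.0563, range over its alternatives 0.000191 to 0.210).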
